A study of Homo sapiens with 12 samples.

Results

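The measurement described here is the mean response of polarized macrophages to MCHP (monocyclohexyl phthalate, the monoester of the plasticizer dicyclohexyl phthalate; the labels give only the abbreviation), taken over an M1 and an M2 state. It was estimated from all 12 RNA libraries of the series, so 12 of 12 were used: the mean of the M1 and M2 groups given MCHP was set against the mean of the M1 and M2 groups given the solvent DMSO, with the polarization state kept in the model. The titles name the cells (PPRE)-eGEP-THP-1; THP-1 is a human monocytic leukaemia line, and the labels do not expand the first 2 terms. Every group was first turned into resting macrophages by 48 h with 25 ng/mL of the phorbol ester PMA (phorbol 12-myristate 13-acetate), followed by 24 h without it. The M1 groups then received lipopolysaccharide at 100 ng/mL with interferon gamma at 20 ng/mL, and the M2 groups interleukin 4 and interleukin 13 at 20 ng/mL each. Polarization lasted 24 h, and MCHP at 100 µM was added together with the polarizing agents; the control groups are titled DMSO. Each of the 4 groups (M1 DMSO, M1 MCHP, M2 DMSO, M2 MCHP) held 3 libraries that the labels call biological replicates of this 1 cell line. Nothing in the sources used here says that they came from separate cultures, so p-values measure the spread between these samples.

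Peroxisome proliferator-activated receptors (PPARs) are nuclear receptors that bind DNA together with a retinoid X receptor and switch on genes when a fatty acid or a similar ligand binds them. In macrophages their known targets include genes for fatty acid uptake, fatty acid chaperones, lipid droplet coats, fatty acid oxidation and the liver X receptor NR1H3, which in turn drives cholesterol export genes. Monoesters of several phthalates are known PPAR ligands. M1 macrophages are known for inflammatory cytokines and interferon-driven genes, and M2 macrophages for lectin receptors and other chemokines.

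Libraries held 14352202 to 16871233 counts, and 15252 of 58907 genes passed the filter on low counts. Library M2 DMSO replicate 1 stood apart: its log2 values deviated from the rest of its group with an SD of 0.325 over genes, against 0.186 to 0.226 in the other 11 libraries, and it had counts for 23734 genes against 21818 to 22731. Of the macrophage and monocyte markers checked, CSF1R, SPI1 and ITGAM were detected at 52290, 76990 and 107514 counts over all libraries, while CD68 had 36 and MRC1 only 2. Lists for other cell types were uneven. Of 8 T and NK cell markers, CD3D and CD3E had 1 and 3 counts, but NKG7 had 965 and the T cell receptor constant gene TRAC had 3834 and was called lower (-0.57 ± 0.091, edgeR adjusted p = 0.00103); their summed level ran from 17 to 17.5 CPM in M1 MCHP against 21.3 to 23.9 in M1 DMSO, and from 22.8 to 29.8 against 33.4 to 43.6 in M2. Of 7 fibroblast markers, DCN had 0 counts, COL1A1 13714 and PDGFRB 2139, with 0 of 3 tested called. Of 5 B cell markers, MS4A1 had 0 and CD79A 160, and of 5 epithelial markers, EPCAM had 0 and KRT8 308, with 0 of 3 and 0 of 2 tested called. Osteoclast markers summed to 3760 to 5480 CPM, with 0 of 5 tested called, and MMP9 alone had 628412 counts. The macrophage and monocyte markers summed to less, 1470 to 1840 CPM. Endothelial markers summed to 920 to 1600 CPM, with PECAM1 at 183538 counts and 1 of 3 tested higher. Adipocyte markers ran from 234 to 269 CPM in M2 MCHP against 129 to 140 in M2 DMSO, and 114 to 125 against 115 to 118 in M1. Of 4 tested, 2 were higher, FABP4 and ADIPOR2. The part of other cells in the results was not tested.

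Averaged over both states, 508 genes differed between MCHP and DMSO at an adjusted p under 0.05 (edgeR's quasi-likelihood test with Benjamini-Hochberg adjustment), which is 3.33% of the genes tested. Of these, 293 were higher with MCHP (1.92% of the genes tested) and 215 lower (1.41%). In bulk RNA, more or fewer cells expressing a gene and more or less RNA per cell cannot be told apart. Most changes were small: the median absolute log2 fold change of the called genes was 0.30, and 59 of them reached 1.5-fold, 31 upward and 28 downward. A 2-fold change was reached by 9 higher and 6 lower genes. The share of rises moved with how libraries were scaled: with library size alone in place of TMM factors, 228 genes were higher and 287 lower, or 44.3% higher against 57.7%, with the median of all genes moved by -0.025. Without M2 DMSO replicate 1, 1378 of 15629 genes were called (8.82%), 755 higher (4.83%) and 623 lower (3.99%), and all 508 genes were among them in the same direction.

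The largest rises named included lipid genes and genes with other known functions, and the lipid genes are given first. Rises and falls named by size were chosen among called protein-coding genes with a mean of at least 5 CPM whose treatments did not overlap in either state. That lack of overlap is therefore no separate result. PLIN2 encodes the coat protein perilipin 2 of lipid droplets (chromosome 9, 19108375 to 19149290, minus strand, hg38). In M1, PLIN2 lay at 35.8, 39.4 and 33.9 CPM (read counts relative to library size, TMM-adjusted) in the DMSO libraries and at 58.6, 52.1 and 54.4 in the MCHP libraries. In M2, PLIN2 lay at 51.3, 46.4 and 47.1 CPM with DMSO and 144, 156 and 143 with MCHP. All 3 MCHP libraries were above all 3 DMSO libraries in both states, with the wider gap in M2. Its average log2 fold change was 1.11 ± 0.053 (SE throughout), with an adjusted p of 9.55e-10.

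CD36, the scavenger receptor and fatty acid translocase, occupies chromosome 7, 80369575 to 80679277, plus strand. In M1, CD36 lay at 46.5, 47.5 and 46.2 CPM with DMSO and 92.5, 85.3 and 86.2 with MCHP. In M2, CD36 lay at 161, 121 and 127 CPM with DMSO and 293, 292 and 294 with MCHP. The M2 state had the higher level under either solvent or compound, M2 DMSO replicate 1 was the highest of its group, and no DMSO library reached an MCHP library of its state. The average log2 fold change of CD36 was 1.01 ± 0.059 (adjusted p = 1.05e-08), with 0.91 in M1 and 1.10 in M2; the difference between those had an adjusted p of 0.688.

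NR1H3 encodes the liver X receptor alpha (chromosome 11, 47248300 to 47269032, plus strand). In M1, NR1H3 lay at 29.7, 27.2 and 29.6 CPM with DMSO and 40.1, 41.4 and 41.2 with MCHP. In M2, NR1H3 lay at 30.1, 30.1 and 28.3 CPM with DMSO and 54.4, 53.8 and 51.8 with MCHP. DMSO levels overlapped between the states, and the MCHP libraries lay above them in each. The average log2 fold change was 0.68 ± 0.050 (adjusted p = 3.14e-07).

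The fatty acid chaperone FABP4 had the largest average log2 fold change of the named rises, 2.86 ± 0.48 (adjusted p = 0.0016), on very different levels. In M2, FABP4 lay at 13.4, 6.18 and 5.30 CPM with DMSO and 91.3, 106 and 78.3 with MCHP, with M2 DMSO replicate 1 the highest DMSO library. In M1 the gene was near its detection limit, with 6 counts over the 3 DMSO libraries and 30 over the MCHP libraries, a ratio of 4.95 with an exact 95% binomial interval of 2.03 to 14.5 that covers counting error only. Without M2 DMSO replicate 1 the average was 3.12. FABP5, a second chaperone, rose by 0.78 ± 0.073 (adjusted p = 6.51e-06). In M1, FABP5 lay at 15.2, 16.9 and 14.5 CPM with DMSO and 21.3, 19.4 and 17.4 with MCHP, a narrow gap without overlap. In M2, FABP5 lay at 39.2, 40.9 and 35.9 CPM with DMSO and 92.7, 101 and 79.3 with MCHP, a wide one. FABP5 has processed copies in the genome, so its counts are uncertain.

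**Figure D1:**
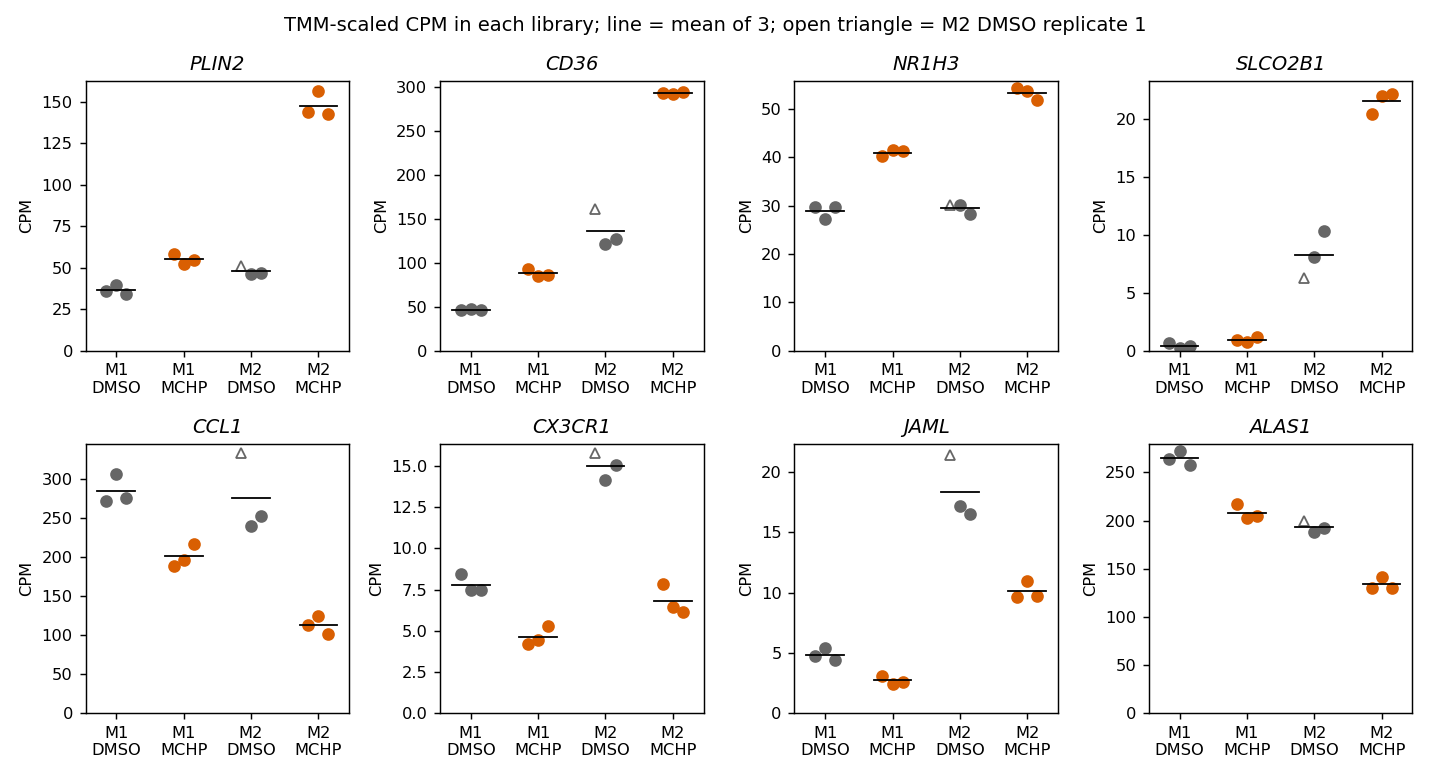
TMM-scaled CPM (linear axis from 0) of 8 genes in the 12 libraries, grouped by state and treatment; grey, DMSO; orange, MCHP; the line is the mean of 3 libraries and the open triangle is M2 DMSO replicate 1. In the 4 upper genes (PLIN2, CD36, NR1H3, SLCO2B1) each MCHP library lies above each DMSO library of its state, and in the 4 lower genes (CCL1, CX3CR1, JAML, ALAS1) each lies below. The rule that named these genes, other than ALAS1, required that separation.

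Promoter sequence was looked at because PPAR and its partner receptors are known to bind repeats of AGGTCA. The naming rules gave 12 genes as higher with groups apart in both states. Of these, 9 were looked up in the RefSeq promoter table (GRCh38.p14), with 19 start sites. FABP4 and FABP5 were left out beforehand because of their place in the genome, and VWA5A gave no window. The counts below do not cover these genes. The 250 bases upstream of each start were searched on both strands. The direct repeat of AGGTCA with any 1 base between its 2 copies was in 0 of the 19 windows and in 0.0171% of all 35116 windows of the table, and the looser repeat of AGGNCA with the same spacing was in 0 and in 0.268%. The single unit AGGTCA, which the first repeat holds 2 times, was in 1 of 19 (5.26%) and in 12.1% of all. That match lay in front of NR1H3, starting 140 bases before its start site, and is shown in capitals within a stretch of 30 bases (chr11:47248148-47248177, plus strand). Its window of 250 bases overlaps a GENCODE exon, as do most of the 19. Some windows of 1 gene also overlap each other, such as those of CD36 at 80638266-80638515 and 80638392-80638641, so the 19 are not independent sequences. Windows of CD36 (chr7:80638266-80638515, plus strand, inside the gene model at a downstream start site) and SHANK3 (chr22:50672573-50672822, plus strand) are shown for comparison; both overlap no GENCODE exon and hold no match, so they carry no capitals.
NR1H3: tggtttgcctatAGGTCAgaagcatcccct
CD36: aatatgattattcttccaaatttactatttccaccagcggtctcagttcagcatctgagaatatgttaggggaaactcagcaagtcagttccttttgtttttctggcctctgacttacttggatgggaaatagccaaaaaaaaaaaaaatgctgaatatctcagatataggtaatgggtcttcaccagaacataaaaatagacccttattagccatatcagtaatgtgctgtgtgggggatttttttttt
SHANK3: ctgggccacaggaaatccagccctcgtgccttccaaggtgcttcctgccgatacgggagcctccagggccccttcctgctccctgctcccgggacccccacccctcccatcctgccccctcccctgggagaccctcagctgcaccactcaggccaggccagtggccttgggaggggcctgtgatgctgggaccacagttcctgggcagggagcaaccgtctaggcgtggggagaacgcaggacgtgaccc
A match is a description of letters, and its absence says only that these letters were not in these windows.

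Rises of like size were seen in genes not known for lipid handling. SHANK3, a scaffold protein best known from synapses, lay in M1 at 16.0, 14.2 and 14.2 CPM with DMSO and 24.5, 23.5 and 24.8 with MCHP. In M2, SHANK3 lay at 22.4, 32.2 and 34.8 CPM with DMSO and 83.3, 78.1 and 82.2 with MCHP, the lowest DMSO value belonging to replicate 1. The treatments did not overlap in either state, and the average log2 fold change was 1.08 ± 0.085 (adjusted p = 7.21e-07). SLCO2B1, an organic anion transporter, rose by 1.3 ± 0.22 (adjusted p = 0.00195) from 6.30, 8.12 and 10.3 CPM with DMSO to 20.4, 22 and 22.2 with MCHP in M2. Its M1 libraries lay at 0.643, 0.202 and 0.382 CPM with DMSO and 0.939, 0.726 and 1.18 with MCHP, low values that gave 1.22 (0.65 as the adjusted p in M1 alone) beside 1.38 in M2.

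The heparan sulfate proteoglycan glypican 1 (GPC1) was among the genes with a larger M1 value. In M1, GPC1 lay at 4.50, 4.65 and 3.94 CPM with DMSO and 9.70, 9.88 and 9.38 with MCHP. In M2, GPC1 lay at 9.51, 12.0 and 15.7 CPM with DMSO and 21.6, 19.9 and 21.6 with MCHP. No libraries overlapped between treatments, the average was 0.95 ± 0.11 (adjusted p = 4.67e-05), and the log2 fold changes of 1.15 in M1 and 0.75 in M2 were not told apart by the test of their difference (adjusted p = 0.65). TLR4, the receptor for the lipopolysaccharide used to make the M1 state, rose by 0.92 ± 0.052 (adjusted p = 6.65e-09). In M1, TLR4 lay at 31.5, 31.5 and 32.5 CPM with DMSO and 46.4, 41.3 and 40.8 with MCHP. In M2, TLR4 lay at 23.0, 22.8 and 23.8 CPM with DMSO and 61.3, 60.9 and 63.8 with MCHP. DMSO cells had the lower TLR4 level in M2, and MCHP cells the higher one.

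The remaining rises named by size were VWA5A (0.92 ± 0.14, adjusted p = 0.000865), the protein phosphatase 2A regulatory subunit PPP2R3A (0.81 ± 0.11, 0.000221) and GOLGA7B (0.68 ± 0.13, 0.00399). PPP2R3A lay at 9.54 ± 1.74 CPM (SD, n = 3) with DMSO and 14.1 ± 2.03 with MCHP in M1, and at 17.7 ± 3.29 with DMSO and 37.2 ± 3.85 with MCHP in M2. Chosen after their values were seen, the annexin ANXA1 (0.66 ± 0.085, adjusted p = 0.000221), DPYSL3 (0.63 ± 0.080, 0.000199), the secreted semaphorin SEMA3C (0.61 ± 0.10, 0.00141) and the endothelial receptor kinase TIE1 (0.52 ± 0.055, 2.63e-05) also rose. ANXA1, known as a mediator of resolving inflammation, had log2 fold changes of 0.59 in M1 and 0.72 in M2; for DPYSL3 they were 0.61 and 0.64.

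The largest falls that met the naming rule included a chemokine, a chemokine receptor and an adhesion molecule. None of these reached 2-fold, and the 6 lower genes that did were outside the rule. CCL1 encodes a chemokine whose receptor is CCR8 (chromosome 17, 34360328 to 34363231, minus strand). In M1, CCL1 lay at 272, 306 and 275 CPM with DMSO and 189, 197 and 216 with MCHP. In M2, CCL1 lay at 333, 239.5 and 252 CPM with DMSO and 113, 125 and 102 with MCHP. All MCHP libraries were below all DMSO libraries of their state, and M2 DMSO replicate 1 held the highest value of all 12. The average log2 fold change was -0.89 ± 0.073 (adjusted p = 1.19e-06), and -0.81 (2.01e-13) without that library.

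CX3CR1, the fractalkine receptor (chromosome 3, 39263494 to 39281735, minus strand), had the largest fall named by size. In M1, CX3CR1 lay at 8.43, 7.48 and 7.44 CPM with DMSO and 4.19, 4.43 and 5.31 with MCHP. In M2, CX3CR1 lay at 15.8, 14.1 and 15.1 CPM with DMSO and 7.81, 6.44 and 6.16 with MCHP. The treatments did not overlap in either state, and the average log2 fold change was -0.94 ± 0.10 (adjusted p = 2.17e-05). The adhesion molecule JAML (chromosome 11, 118193740 to 118225094, minus strand) had log2 fold changes of -0.82 in M1 and -0.85 in M2, with an average of -0.84 ± 0.11 (adjusted p = 0.000221). Its libraries lay at 4.79, 5.39 and 4.39 CPM with DMSO and 3.13, 2.47 and 2.62 with MCHP in M1, and at 21.4, 17.1 and 16.5 with DMSO and 9.62, 11 and 9.72 with MCHP in M2, again with M2 DMSO replicate 1 the highest.

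The other falls named by size spanned unrelated functions. They were the adhesion receptor ADGRG3 (-0.66, adjusted p = 0.012), the galactose-binding lectin CLEC10A (-0.64, 0.00761), the protease inhibitor neuroserpin SERPINI1 (-0.61, 0.00167) and the antizyme inhibitor AZIN2 (-0.58, 2.17e-05). The receptor-like pseudokinase PTK7 (-0.57, 0.000457), the proton channel HVCN1 (-0.56, 0.0012), NRAP (-0.54, 0.00146), C6orf223 (-0.52, 0.00613) and the cytokine IL32 (-0.52, 0.000867) completed the group. AZIN2 lay at 29.7, 31.1 and 33.0 CPM with DMSO and 24.6, 24.3 and 23.3 with MCHP in M1, and at 30.2, 33.7 and 35.5 with DMSO and 19.8, 19.7 and 18.2 with MCHP in M2. Both MCHP groups of AZIN2 were below both DMSO groups without overlap. IL32 lay at 75.6 ± 3.77 CPM (SD, n = 3) with DMSO and 63.1 ± 1.23 with MCHP in M1, and at 6.81 ± 0.621 with DMSO and 3.95 ± 0.860 with MCHP in M2, so its level differed far more between states than between treatments. The CLEC10A call was lost in a fit with no interaction of state and treatment (adjusted p = 0.052).

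For most called genes the estimated response ran the same way in both states and was larger in M2, though few differences were called. A call on the average favours genes with the same sign in both states, so the shared direction is partly set by the choice of genes. The 293 higher genes had a median log2 fold change of 0.17 in M1 and 0.39 in M2, and 265 of them (90.4%) had the larger value in M2. For the 215 lower genes the medians were -0.19 and -0.46, and 188 (87.4%) had the larger fall in M2. These shares compare estimates only: the test of the difference of responses called 12 of the 293 and 7 of the 215. In 120 of the 293 and 97 of the 215, the M1 log2 fold change lay within a factor of 2 of the M2 value, with the same sign. Among all genes tested, 62.6% had the larger absolute log2 fold change in M2. In M1 alone 13 genes were called (0.0852%) and in M2 alone 779 (5.11%), with the same libraries as the average. Each gene has 1 estimate of spread over all 4 groups, so the M1 calls depend on M2 libraries too. Without M2 DMSO replicate 1, edgeR's adjusted p in M1 went from 0.0839 to 1.7e-05 for TIE1 and from 0.138 to 0.000525 for MGLL. Their M1 log2 fold changes stayed at 0.40 and 0.35. For FABP5 it went from 0.65 to 0.207, still not called. The count of 13 is thus no measure of how many genes responded in M1. The M1 value ran against the average in 7 of the 293 and 5 of the 215 genes, and the M2 value in 0 of either. Of the called genes, 199 higher and 138 lower had treatments that did not overlap in M1 and in M2, out of 363 higher (2.38%) and 235 lower (1.54%) such genes among all tested; without M2 DMSO replicate 1 there were 483 (3.09%) and 383 (2.45%) in all. Over all genes tested, the M1 and M2 log2 fold changes had a Pearson r of 0.113, and of 0.0802 without M2 DMSO replicate 1. Each r is a description across genes, which are not independent replicates.

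**Figure D2:**
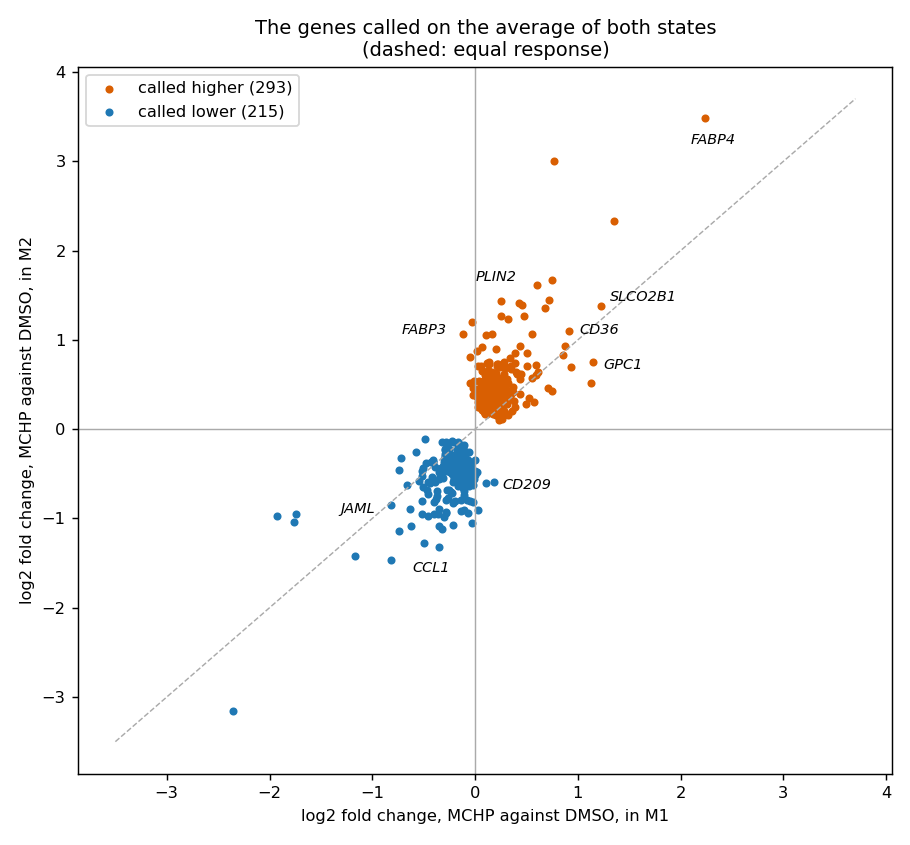
Log2 fold change of MCHP against DMSO in M1 (horizontal) and M2 (vertical) for the genes called on the average, orange for the 293 higher and blue for the 215 lower; the dashed line marks equal response. Most points lie farther from 0 on the M2 axis than on the M1 axis, while GPC1 lies on the M1 side of the line and JAML close to it.

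With all 12 libraries, some genes were called only when both states were combined, having an adjusted p of at least 0.05 in M1 and in M2 alone. TRAF1, an adaptor of tumour necrosis factor receptors, lay in M1 at 164, 161 and 167 CPM with DMSO and 196, 201 and 204 with MCHP. In M2, TRAF1 lay at 127, 127 and 131 CPM with DMSO and 139, 144 and 155 with MCHP. The shift was small and without overlap in both, and the average was 0.24 ± 0.040 with an adjusted p of 0.00176, beside 0.0652 in M1 and 0.0672 in M2 alone. TXNRD1, the cytosolic thioredoxin reductase, rose by 0.19 ± 0.038 (0.00762), and the dystroglycan gene DAG1 by 0.21 ± 0.041 (0.0046). Values of TXNRD1 were 112, 113 and 117 CPM with DMSO and 133, 133 and 140.3 with MCHP in M1, and 168, 168 and 160.2 with DMSO and 182, 183 and 178 with MCHP in M2.

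Falls of this kind included the glucose transporter GLUT3 gene SLC2A3. In M1, SLC2A3 lay at 134, 122 and 128 CPM with DMSO and 110.4, 107 and 101 with MCHP. In M2, SLC2A3 lay at 53.8, 51.8 and 51.4 CPM with DMSO and 45.8, 45.7 and 42.2 with MCHP. MCHP libraries were the lower ones throughout, and the average was -0.25 ± 0.045 (adjusted p = 0.00348), with -0.27 in M1 and -0.23 in M2. The orphan nuclear receptor NR4A1 fell (-0.36 ± 0.078, 0.0121), as did the carbonic anhydrase-related CA11 (-0.34 ± 0.073, 0.0121), the adaptor SLA (-0.18 ± 0.038, 0.00893) and TSC22D1 (-0.18 ± 0.036, 0.00738). LPL, the secreted lipoprotein lipase and a known PPAR target, fell (-0.23 ± 0.050, 0.0123). LPL lay in M1 at 35.4, 38.5 and 40.2 CPM with DMSO and 30.7, 30.5 and 30.0 with MCHP, and in M2 at 642, 551 and 551 with DMSO and 505, 543 and 530.3 with MCHP. M2 DMSO replicate 1 was the highest LPL library, the treatments did not overlap in either state, and without M2 DMSO replicate 1 the average was -0.19 (0.000733); the LPL call was lost without M1 DMSO replicate 3 (adjusted p 0.0528).

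**Figure D3:**
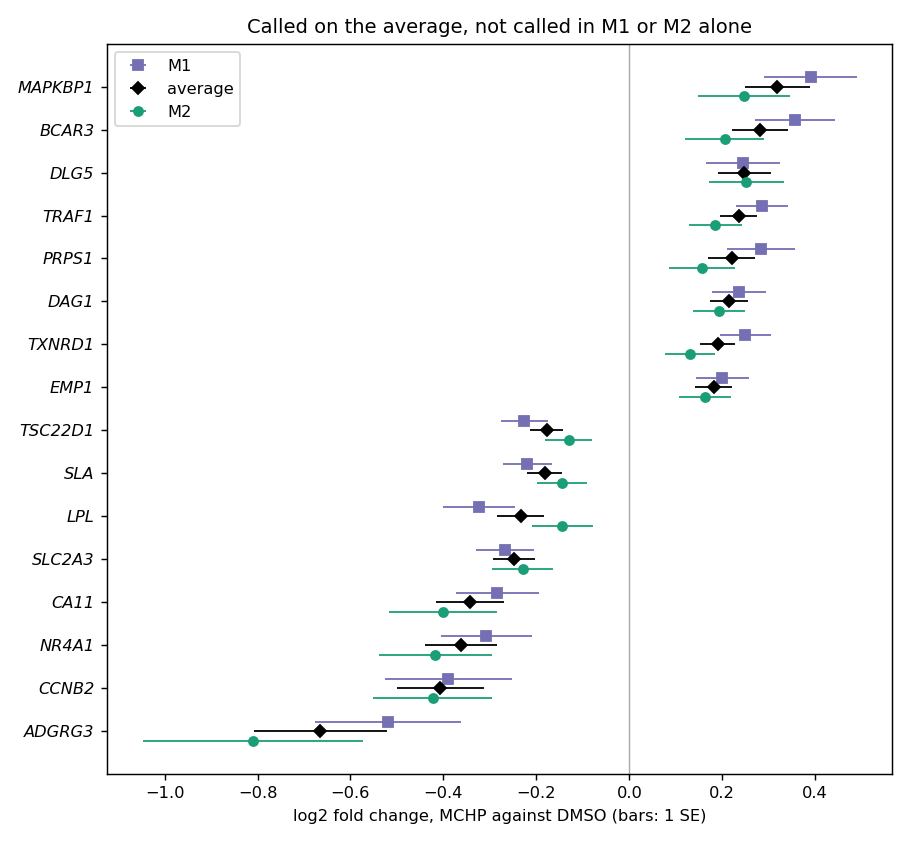
Log2 fold change of MCHP against DMSO, with bars of 1 SE, for the 8 rises and 8 falls with the smallest p on the average among genes not called in M1 or M2 alone; squares, M1; circles, M2; diamonds, average. M1 and M2 lie on the same side of 0 for all 16 genes, which the rule that chose them favours. The average has the shorter bars because it combines the libraries of both states.

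Of the other genes in that plot, 6 lost their call with 1 library left out while the log2 fold change stayed close to its value. MAPKBP1 (0.32, adjusted p = 0.015) was at 0.281 to 0.299 without M1 MCHP replicate 2 (adjusted p 0.0535) or M1 DMSO replicate 2 (0.0566). BCAR3 (0.28, 0.0124) was at 0.256 without M1 MCHP replicate 1 (adjusted p 0.0512), and EMP1 (0.18, 0.0148) at 0.17 without M1 MCHP replicate 1 (adjusted p 0.0565). DLG5 (0.25, 0.0191) was at 0.225 to 0.245 without M1 MCHP replicate 1 (adjusted p 0.062), M1 MCHP replicate 2 (0.059), M1 DMSO replicate 1 (0.0621), M1 DMSO replicate 3 (0.0538) or M2 MCHP replicate 1 (0.072). The nucleotide synthesis enzyme gene PRPS1 (0.22, 0.021) was at 0.19 to 0.224 without M1 MCHP replicate 1 (adjusted p 0.0708), M1 MCHP replicate 2 (0.0537), M1 DMSO replicate 1 (0.0531), M1 DMSO replicate 3 (0.0689), M2 MCHP replicate 1 (0.0588) or M2 MCHP replicate 2 (0.0594). The mitotic cyclin CCNB2 (-0.41, 0.02) was at -0.404 to -0.36 without M1 MCHP replicate 2 (adjusted p 0.0603), M1 MCHP replicate 3 (0.0649), M1 DMSO replicate 1 (0.0709), M2 MCHP replicate 1 (0.0536) or M2 MCHP replicate 3 (0.0524).

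Among 31 tested members of the list of PPAR target genes, 14 were higher and 1 (LPL) was lower, with a median average log2 fold change of 0.24 against -4e-04 over all genes tested. Of all genes tested, 1.92% were higher and 1.41% lower, and each list count below is to be read beside those shares. Without M2 DMSO replicate 1, 17 were higher and 1 lower, and with any other library left out 12 to 14 were higher. The called genes of fatty acid activation and oxidation had smaller values than PLIN2 and CD36: the trifunctional protein subunits HADHA (0.36 ± 0.041, adjusted p = 4.05e-05) and HADHB (0.22 ± 0.045, 0.00806), the very long chain dehydrogenase ACADVL (0.25 ± 0.048, 0.00438) and the acyl-CoA synthetases ACSL5 (0.46 ± 0.040, 1.92e-06) and ACSL1 (0.24 ± 0.036, 0.000671). In M1, ACSL5 lay at 136, 137 and 133 CPM with DMSO and 162, 159 and 152 with MCHP, and in M2 at 94.4, 92.9 and 88.2 with DMSO and 150.0, 154 and 146 with MCHP. The lipoprotein receptor VLDLR rose by 0.22 ± 0.041 (0.00426), and the glycerol-3-phosphate dehydrogenase GPD1 by 1.21 ± 0.18 (0.000642). GPD1 had under 2 CPM in each M1 library and went from 6.55, 7.88 and 9.06 CPM with DMSO to 22.8, 26.7 and 25.8 with MCHP in M2.

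Not every known target passed. ANGPTL4, an inhibitor of lipoprotein lipase, had an average of 0.39 ± 0.11 (adjusted p = 0.0569), which passed without M1 DMSO replicate 2 (adjusted p 0.0408) or M2 DMSO replicate 1 (0.0374). CPT1A, the gate of mitochondrial fatty acid entry, had 0.25 ± 0.078 (0.102), and the droplet protein gene HILPDA had 0.59 ± 0.18 (0.0926), which passed without M2 DMSO replicate 3 (adjusted p 0.0257). HILPDA lay at 1.64, 1.21 and 1.72 CPM with DMSO and 1.19, 1.96 and 1.18 with MCHP in M1, where the treatments overlapped, and at 2.77, 2.94 and 4.56 with DMSO and 8.65, 8.71 and 7.46 with MCHP in M2, where they did not. The transporter gene ABCG2 had 75 counts with MCHP and 11 with DMSO in M2, but 1 and 0 in M1, and its average of 2.37 had an adjusted p of 0.387 (M2 alone 2.82, 0.00392). ABCG2 passed in a model with no interaction of state and treatment (2.79, adjusted p = 0.00218) and by limma-voom with sample quality weights (0.0158). PDK4 had 0 counts in all libraries.

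The receptors themselves were not called on the average by edgeR with all libraries. PPARG had -0.28 ± 0.080 (adjusted p = 0.0726), PPARA 0.093 ± 0.049 (0.374), PPARD -0.078 ± 0.058 (0.57) and RXRA 0.011 ± 0.076 (0.969). In M1, PPARG lay at 28.1, 32.1 and 26.7 CPM with DMSO and 21.7, 24.1 and 22.1 with MCHP. In M2, PPARG lay at 128, 89.6 and 96.0 CPM with DMSO and 96.0, 92.9 and 84.8 with MCHP. The treatments were apart in M1, where MCHP libraries were lower, and overlapped in M2, where replicate 1 of the DMSO group was far above the others. PPARG passed without M2 DMSO replicate 1 (adjusted p 0.0183) or M2 DMSO replicate 2 (0.0223), and its average was -0.19 in the first of these fits; it also passed by DESeq2's Wald test (0.027), with no filter on low counts (0.0007) and by limma-voom with sample quality weights (0.0411). PPARD passed, at -0.14, without M2 DMSO replicate 1 (adjusted p 0.000733) and by limma-voom with sample quality weights (0.000692). The direction of RXRA turned with the scaling and with the library left out.

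Of the 14 tested genes for lipid droplet coats and lipolysis, 4 were higher and 0 lower, with a median of 0.20 that was 0.0786 without M1 MCHP replicate 3, 0.118 without M1 MCHP replicate 2 and 0.131 without M2 DMSO replicate 1. Besides PLIN2 they were monoglyceride lipase MGLL (0.53 ± 0.055, adjusted p = 2.17e-05), the lipase coactivator ABHD5 (0.40 ± 0.073, 0.00308) and PLIN4 (0.43 ± 0.11, 0.0334), whose call was lost without M1 MCHP replicate 2 (adjusted p 0.1), M1 MCHP replicate 3 (0.0877), M1 DMSO replicate 1 (0.0923), M1 DMSO replicate 2 (0.0824), M1 DMSO replicate 3 (0.0578), M2 MCHP replicate 1 (0.0555), M2 MCHP replicate 2 (0.0636) or M2 MCHP replicate 3 (0.0877). MGLL lay at 88.8, 82.4 and 89.2 CPM with DMSO and 109, 114 and 109 with MCHP in M1, and at 88.9, 103 and 111 with DMSO and 166, 153 and 176 with MCHP in M2. Treatments were apart for MGLL in both states. This list shares 6 genes with the PPAR targets.

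Genes of fatty acid and triglyceride synthesis had 4 of 26 higher, with a median of 0.0556. The stearoyl-CoA desaturase SCD rose by 0.32 ± 0.037 (adjusted p = 7.02e-05) and DGAT2, which makes triglyceride, by 0.39 ± 0.046 (7.37e-05). In M1, DGAT2 lay at 225, 224 and 218 CPM with DMSO and 254, 249 and 256 with MCHP, and in M2 at 138, 159 and 168 with DMSO and 242, 229.8 and 228 with MCHP. The fourth called member beside GPD1, the acetyl-CoA carboxylase ACACA (0.19, 0.0482), kept its call only without M1 DMSO replicate 3 or M2 DMSO replicate 1 and lost it in the other 10 such fits. With M2 DMSO replicate 1 left out, 6 members were higher and 1 lower, and the median was 0.0268. LXR targets had 4 of 15 higher and a median of 0.00745 (-0.0121 to 0.0448 with 1 library left out; 1 member was lower without M2 DMSO replicate 1): NR1H3, SCD, the cholesterol exporter ABCA1 (0.23 ± 0.049, 0.00966) and the lipoprotein receptor SCARB1 (0.38 ± 0.055, 0.000513). Cholesterol synthesis and uptake had 0 of 25 called by edgeR with all libraries (8 at an unadjusted p under 0.05, 6 higher and 2 lower), 1 higher by DESeq2's Wald test, 0 by limma-voom and 2 higher by edgeR without M2 DMSO replicate 1. In mitochondrial fatty acid oxidation 4 of 23 were higher and 1 lower, the hydroxyacyl-CoA dehydrogenase HADH (-0.34 ± 0.051, 0.000632), and 6 were higher without M2 DMSO replicate 1.

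**Figure D4:**
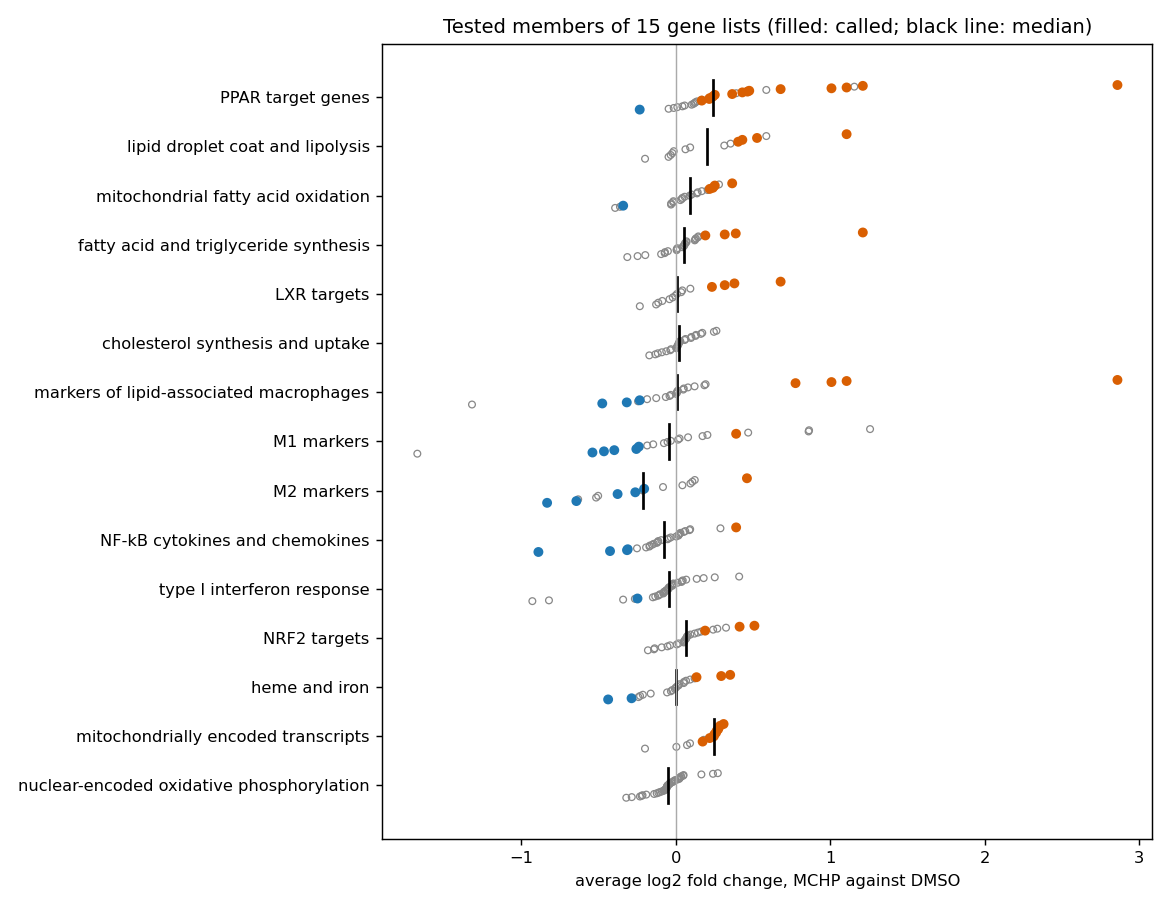
Average log2 fold change of MCHP against DMSO for each tested member of 15 gene lists; filled points are called genes (orange higher, blue lower), open points are not called, and the black line is the list's median. Among the lists shown, the PPAR target and mitochondrially encoded lists have medians of 0.24 and 0.246, and the M2 marker list has one of -0.214. The plot holds 15 of the 27 lists and leaves out class II antigen presentation, with a median of -0.505.

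Markers of lipid-associated macrophages, known from adipose tissue, changed in both directions. Of 24 tested, FABP4, FABP5, PLIN2 and CD36 were higher, and the lipid receptor TREM2 (-0.48 ± 0.081, adjusted p = 0.00182), its adaptor TYROBP (-0.32 ± 0.071, 0.0158) and LPL were lower, with a median of 0.00791 (-0.0099 to 0.0238 with 1 library left out). In M1, TREM2 lay at 8.58, 9.23 and 7.13 CPM with DMSO and 4.88, 6.68 and 5.97 with MCHP. In M2, TREM2 lay at 59.7, 54.1 and 59.9 CPM with DMSO and 41.1, 44.9 and 42.0 with MCHP. The MCHP libraries were below the DMSO libraries in both states, with log2 fold changes of -0.51 in M1 and -0.44 in M2. TYROBP lost its call without M1 MCHP replicate 1 (adjusted p 0.0506), M1 DMSO replicate 1 (0.0543) or M1 DMSO replicate 2 (0.063). Without M2 DMSO replicate 1 the list had 5 higher and 5 lower. CSF1R, the receptor of the macrophage growth factor, also fell (-0.23 ± 0.039, 0.00173); the summed macrophage and monocyte markers ran from 1710 to 1730 CPM in M1 MCHP against 1760 to 1840 in M1 DMSO, and from 1470 to 1500 against 1500 to 1720 in M2, and their part in these falls was not tested.

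Polarization markers of both states were called lower more often than higher, where 1.41% of all genes tested were lower and 1.92% higher. Of 22 M1 markers tested, 5 were lower and 1 higher, with a median of -0.0431 (-0.0814 to -0.00664 with 1 library left out); without M2 DMSO replicate 1, 7 were lower and 2 higher. The high-affinity Fc receptor FCGR1A (-0.40 ± 0.054, adjusted p = 0.000316), the death ligand TNFSF10 (-0.47 ± 0.066, 0.000458) and the chemokine CCL5 (-0.26 ± 0.036, 0.000372) fell, while the prostaglandin synthase PTGS2 rose by 0.39 ± 0.061 (0.000936). CCL8 and CD40 were lower as well. CD40 lost its call without M1 MCHP replicate 1 (adjusted p 0.0512), M1 MCHP replicate 2 (0.0788), M1 MCHP replicate 3 (0.0663), M1 DMSO replicate 1 (0.0741) or M1 DMSO replicate 2 (0.0788). With 1 library left out, 4 to 7 M1 markers were lower. FCGR1A lay at 255, 259 and 258 CPM with DMSO and 237, 225 and 228 with MCHP in M1, and at 51.9, 42.2 and 42.4 with DMSO and 30.1, 30.8 and 26.9 with MCHP in M2. PTGS2 lay at 141, 138 and 144 CPM with DMSO and 179, 167 and 166 with MCHP in M1, and at 13.0, 10.9 and 10.7 with DMSO and 18.4, 16.1 and 14.4 with MCHP in M2. Neither gene's treatments overlapped. Of 15 M2 markers tested, 5 were lower and 1 higher, with a median of -0.214. CLEC10A, CCL13 (-0.83 ± 0.17, 0.00978), CLEC7A (-0.26 ± 0.057, 0.0136), CISH and CD209 fell, and the chemokine CCL22 rose by 0.46 ± 0.073 (0.00105). The M2 count of 5 lower went to 3 without M1 MCHP replicate 2 or M1 MCHP replicate 3, to 2 without M1 DMSO replicate 1 and to 6 without M2 DMSO replicate 1. CLEC7A lost its call without M1 MCHP replicate 2 (adjusted p 0.0504) or M1 DMSO replicate 1 (0.0563), and CISH (-0.38) without M1 MCHP replicate 1 (adjusted p 0.059), M1 MCHP replicate 3 (0.0561) or M1 DMSO replicate 1 (0.0741). The chemokines CCL1, CCL2, CCL7, CCL8 and CCL13 lie in families of close copies, so their counts are uncertain.

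NF-kB cytokines and chemokines had 4 of 28 lower and 1 higher (PTGS2), with a median of -0.074 (-0.0462 without M2 DMSO replicate 1). That median combined opposite signs, 0.0628 in M1 and -0.211 in M2. Besides CCL1, the maturation marker CD83 fell (-0.32 ± 0.043, adjusted p = 0.000323), and the monocyte chemokines CCL2 (-0.43, 0.0241) and CCL7 (-0.31, 0.0255) were the other 2. The average of CD83 came from M2, with log2 fold changes of -0.60 there and -0.030 in M1. Only 2 were lower without M1 MCHP replicate 1, M1 MCHP replicate 2, M1 DMSO replicate 1, M1 DMSO replicate 2, M2 MCHP replicate 1 or M2 MCHP replicate 3, and 8 without M2 DMSO replicate 1, where 2 were higher. The type I interferon list had 1 of 33 lower, IFIT2 (-0.25, 0.0365), and 0 higher, with a median of -0.0467. Its median was 0.107 in M1 and -0.181 in M2, and IFIT2 had 0.11 in M1 and -0.61 in M2. Over all genes tested 1.41% were lower, so a single lower member says little about a list of this size. This list turned with 1 library: without M2 DMSO replicate 1, 6 members were higher and 2 lower, and the median was 0.0368. IFIT2 itself lost its call without M1 MCHP replicate 1 (adjusted p 0.0809), M1 MCHP replicate 2 (0.0958), M1 MCHP replicate 3 (0.0877), M1 DMSO replicate 1 (0.0817), M1 DMSO replicate 2 (0.0919), M1 DMSO replicate 3 (0.0868), M2 MCHP replicate 1 (0.143) or M2 MCHP replicate 3 (0.11). In class II antigen presentation 1 of 11 was lower, the invariant chain gene CD74 (-0.28 ± 0.044, 0.000865), and the list's median of -0.505 was -0.275 without M2 DMSO replicate 3 and -0.29 without M2 MCHP replicate 3; 2 members were lower without M2 MCHP replicate 1 or M2 DMSO replicate 1. CD74 lay at 509, 504 and 477 CPM with DMSO and 447, 441 and 434 with MCHP in M1, and at 174, 199.6 and 193 with DMSO and 135, 153 and 144 with MCHP in M2. CIITA, also on this list, was not called by edgeR with all libraries but passed as lower in 8 of 22 other settings. Among these were the fit without M2 DMSO replicate 1 (adjusted p 0.014), DESeq2's Wald test (0.00509) and the model with no interaction (0.0209).

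Transcripts encoded by the mitochondrial genome were higher in 10 of 15 cases and lower in 0, with a median of 0.246. MT-CYB, a subunit of complex III, rose by 0.31 ± 0.054 (adjusted p = 0.00239). In M1, MT-CYB lay at 1474, 1443 and 1587 CPM with DMSO and 1698, 1749 and 1607 with MCHP. In M2, MT-CYB lay at 1285, 1557 and 1540.0 CPM with DMSO and 1859, 1908 and 2230.0 with MCHP. The treatments were closer in M1, with 0.17 against 0.45 in M2, and did not overlap in either. The complex I subunits MT-ND6 (0.27 ± 0.052, 0.00446) and MT-ND5 (0.29 ± 0.057, 0.00674) and the ATP synthase subunit MT-ATP6 (0.28 ± 0.054, 0.00628) followed. The count was 6 without M1 MCHP replicate 2 or M1 DMSO replicate 2 and 13 without M2 DMSO replicate 1. Nuclear-encoded subunits of oxidative phosphorylation had 0 of 40 called by edgeR, with 7 lower and 0 higher at an unadjusted p under 0.05 and a median of -0.0535. As a share of all counts, the mitochondrial transcripts made up 3.09% ± 0.134 (SD, n = 3) with MCHP and 2.96% ± 0.171 with DMSO in M1, and 3.88% ± 0.354 with MCHP and 3.15% ± 0.0718 with DMSO in M2. The average difference was 0.427 percentage points, with an exact two-sided permutation p of 0.02 over 400 reassignments within states (smallest possible 0.005; 0.08 after adjustment over 4 library measures). The part of RNA quality or mitochondrial content in it was not tested.

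Enzymes of antioxidant defence and of heme made smaller groups, beside shares of 1.92% higher and 1.41% lower over all genes tested. Of 26 tested NRF2 targets, 3 were higher and 0 lower, with a median of 0.0682 (0.0308 without M2 DMSO replicate 1; 1 was lower without M2 DMSO replicate 3): TXNRD1, the drug exporter ABCC3 (0.41 ± 0.073, adjusted p = 0.00276) and the microsomal glutathione transferase MGST1 (0.51 ± 0.093, 0.00357). ABCC3 rose about equally in the states, by 0.43 in M1 and 0.39 in M2. ALAS1, the rate-limiting enzyme of heme synthesis, fell (-0.44 ± 0.041, 6.23e-06). In M1, ALAS1 lay at 264, 272 and 257 CPM with DMSO and 217, 202 and 204 with MCHP. In M2, ALAS1 lay at 199.7, 188 and 192 CPM with DMSO and 130.3, 141 and 129.9 with MCHP. MCHP libraries were the lower ones in each state. The mitochondrial iron importer SLC25A37 fell as well (-0.29 ± 0.049, 0.00183), and the iron regulatory protein ACO1 rose by 0.29 ± 0.056 (0.00498). Over the 22 tested genes of heme and iron, 3 were higher and 2 lower, with a median of 0.00254 (-0.00354 to 0.0316 with 1 library left out); 1 was higher when any 1 of 9 libraries was left out (any except M1 DMSO replicate 3, M2 MCHP replicate 3 and M2 DMSO replicate 1), and 4 were lower without M2 DMSO replicate 1. The stress factor ATF3 rose by 0.24 ± 0.040 (0.00146) and the autophagy receptor SQSTM1 by 0.23 ± 0.035 (0.000767).

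The remaining lists held few calls; the share called among all genes tested was 3.33%. Among 13 tested scavenger receptors and lipoprotein handling genes, CD36, SCARB1 and VLDLR were higher, and LPL and the oxidized lipoprotein receptor OLR1 (-0.25 ± 0.042, adjusted p = 0.00146) lower; without M2 DMSO replicate 1 there were 5 in each direction. TLR4 was the 1 higher gene of 19 Toll-like receptors and adaptors, ATF3 and VLDLR were the 2 of 29 in the integrated stress response, and SQSTM1 was the 1 of 30 lysosomal genes. Of 22 genes of the unfolded protein response 1 was lower, HERPUD1 (-0.24 ± 0.044, 0.00359), and of 28 cell cycle genes 1, CCNB2. Glycolysis had SLC2A3 lower and the hexokinase HK2 (0.16 ± 0.043, 0.0397) higher among 24. The AHR and xenobiotic list had the cytochrome P450 reductase POR (0.27 ± 0.068, 0.0355) higher among 16. HK2 kept its call only without M2 MCHP replicate 2, M2 DMSO replicate 1 or M2 DMSO replicate 3, and POR only without any 1 of the 3 M2 DMSO libraries; each was lost in the other 9 fits that left out 1 library (adjusted p 0.0647 to 0.115 and 0.0586 to 0.112). Several of these counts moved with M2 DMSO replicate 1: without it, 2 Toll-like genes were higher and 2 lower, 4 integrated stress genes higher and 1 lower, 3 unfolded protein response genes higher and 1 lower, 1 lysosomal gene in each direction, 2 glycolysis genes higher and 3 lower, and 2 AHR and xenobiotic genes in each direction. Of 24 p53 and apoptosis genes 0 were called by edgeR, 11 had an unadjusted p under 0.05 (7 higher, 4 lower), and DESeq2's Wald test and limma-voom called 0; without M2 DMSO replicate 1, 4 were higher and 1 lower.

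For a few called genes the average combined unlike responses. The test of the difference of responses called 25 genes (0.164% of those tested). CD209, a C-type lectin, lay in M1 at 56.8, 53.5 and 50.3 CPM with DMSO and 65.7, 57.4 and 58.8 with MCHP. In M2, CD209 lay at 151, 173 and 159 CPM with DMSO and 109.7, 111 and 100.0 with MCHP. It was lower with MCHP in M2, and in M1 the MCHP libraries were all above the DMSO libraries, though not called there. The average of -0.20 ± 0.053 (adjusted p = 0.0384) combined 0.18 in M1 (adjusted p = 0.879) with -0.59 in M2 (9.22e-05), and its call was lost without M1 MCHP replicate 2 (adjusted p 0.13), M1 MCHP replicate 3 (0.115), M1 DMSO replicate 1 (0.125), M1 DMSO replicate 2 (0.103), M2 MCHP replicate 1 (0.0801), M2 MCHP replicate 2 (0.0509), M2 MCHP replicate 3 (0.0823), M2 DMSO replicate 2 (0.0923) or M2 DMSO replicate 3 (0.0518). FABP3, the third chaperone, had -0.12 in M1 and 1.07 in M2 (difference, adjusted p = 0.00301), and ADGRE3, an adhesion receptor, -0.049 and 0.81 (0.00267). For both genes the average, 0.48 ± 0.081 and 0.38 ± 0.056, came from M2. In a model with no interaction of state and treatment the calls of ADGRE3 (0.388, adjusted p = 0.0778) and CD209 (-0.228, 0.305) were lost, and among other genes named above those of IFIT2 (0.481), CCL8 (0.404), CCL7 (0.131), CCL2 (0.123), CD40 (0.0887), ACACA (0.0769), CLEC7A (0.0725), HK2 (0.0716) and POR (0.0507). PLIN2 and TLR4 rose in both states, with differences called at an adjusted p of 0.000146 and 0.000146.

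**Figure D5:**
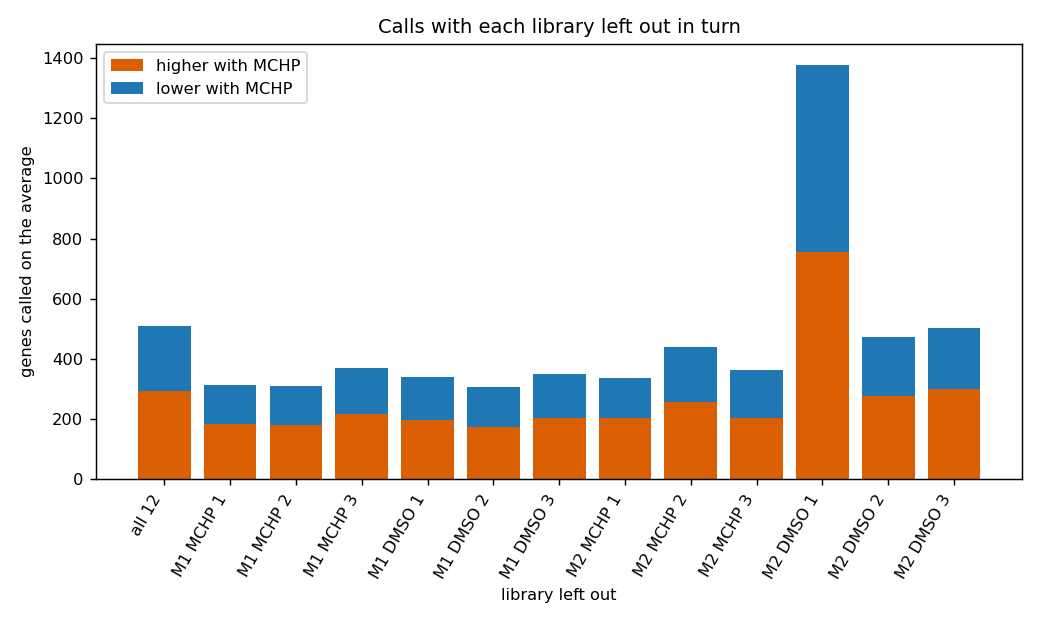
Number of genes called on the average (adjusted p under 0.05), stacked as higher (orange) and lower (blue) with MCHP, with all 12 libraries and with each library left out in turn. Leaving out M2 DMSO replicate 1 raised the count from 508 to 1378, and leaving out any other library gave 306 to 504.

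The count of calls moved most with 1 library. Without M2 DMSO replicate 1 the average log2 fold change of PLIN2 was 1.13, of CD36 1.08, of NR1H3 0.69, of CX3CR1 -0.92 and of JAML -0.77. Larger moves were seen in genes where this library was the extreme one, such as SERPINI1 (-0.61 with it and -0.49 without) and CCL2 (-0.43 and -0.28). The CCL2 call itself was lost without M1 MCHP replicate 1 (adjusted p 0.0512), M1 MCHP replicate 2 (0.0787), M1 MCHP replicate 3 (0.0568), M1 DMSO replicate 1 (0.0695), M1 DMSO replicate 2 (0.0654), M2 MCHP replicate 1 (0.0701) or M2 MCHP replicate 3 (0.0893), and that of CCL7 without M1 MCHP replicate 1 (adjusted p 0.062), M1 MCHP replicate 2 (0.0847), M1 DMSO replicate 1 (0.0604), M1 DMSO replicate 2 (0.085), M1 DMSO replicate 3 (0.0513), M2 MCHP replicate 1 (0.0569), M2 MCHP replicate 2 (0.0523) or M2 MCHP replicate 3 (0.0806). Unless a loss is given above, each called gene named here kept its call in all 12 fits that left out 1 library.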

How the data were processed

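Polyadenylated RNA was measured in 12 libraries, 3 in each of 4 groups taken from the sample titles. Per the file headers, the deposited values are whole-number counts for every gene, not normalized, with a gene length column; every column of library values was used. The submitters' processing notes name DESeq2 1.20.0, featureCounts 1.5.0-p3, HISAT2 2.0.5, fastp and StringTie 1.3.3b with build hg38, without roles; no strand setting, batch or date is given in the sources used here, so overlapping and antisense genes could not be told apart.

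Here, counts were filtered with filterByExpr, TMM-scaled and fitted in edgeR 4.0.16 (R 4.3.3) with 1 mean per group and 8 residual degrees of freedom. The mean of the M1 and M2 contrasts was tested with the two-sided quasi-likelihood F-test and Benjamini-Hochberg adjustment over all genes, at 0.05. Standard errors came from the F statistic; CPM are TMM-scaled. The steps were tested on simulated data. Alternatives were DESeq2 1.42.0 (size factors and Wald test), limma 3.58.1, other scalings, filters and models, and each library left out. Sequences came from RefSeq (GRCh38.p14).

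The members and the 27 gene lists (619 genes, from general knowledge) were chosen with earlier results of these data known. Genes were named by rule: the 12 largest rises and falls among called protein-coding genes with a mean of at least 5 CPM and treatments apart in both states; the 8 smallest p in each direction among genes not called in either state alone; up to 4 members of each list with at least 3 called; the 6 smallest p for the difference of responses; and a set list of receptors, PPAR targets and macrophage genes. ANXA1, DPYSL3, SEMA3C, TIE1, CSF1R, TRAC, TYROBP, CISH, CCL7, CCL8, CD40, IFIT2, CD74, CIITA, ATF3, SQSTM1, HADHB, AOC3, HK2, POR, HERPUD1 and MT-RNR2 were named after their values were seen. Results for some list members are not reported here.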

Additional observations from a re-analysis of the deposited data

Results flagged for a closer look

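The responses in the 2 states differed for 15 of the genes named above or here, by the test of the difference itself (M1 minus M2, log2 fold change, edgeR's quasi-likelihood test with Benjamini-Hochberg adjustment over all genes). For these the average is the midpoint of unequal values. The MCHP response was lower in M1 than in M2 for the droplet coat gene PLIN2 (-1.02, adjusted p = 0.000146), the lipopolysaccharide receptor gene TLR4 (-0.99, adjusted p = 0.000146), the chaperone genes FABP5 (-0.917, adjusted p = 0.0119) and FABP3 (-1.19, adjusted p = 0.00301), and the amine oxidase gene AOC3 (-1.24, adjusted p = 0.0222). The same held for the acyl-CoA synthetase gene ACSL5 (-0.484, adjusted p = 0.0146), the lipoprotein receptor gene SCARB1 (-0.649, adjusted p = 0.0193), the adhesion receptor gene ADGRE3 (-0.855, adjusted p = 0.00267), the oxidation gene HADHA (-0.478, adjusted p = 0.0193), and the mitochondrial ribosomal RNA MT-RNR2 (-0.548, adjusted p = 0.0365). It was higher in M1 than in M2, where the genes fell, for the lectin CD209 (0.772, adjusted p = 0.00301), the interferon-induced IFIT2 (0.714, adjusted p = 0.0222), the maturation marker CD83 (0.572, adjusted p = 0.00835), and the chemokines CCL8 (1.01, adjusted p = 0.0222) and CCL1 (0.776, adjusted p = 0.0312). AOC3 lay at 6.58, 7.35 and 7.51 CPM with DMSO and 5.70, 8.13 and 7.21 with MCHP in M1, and at 5.73, 4.59 and 6.67 with DMSO and 13.0, 13.3 and 12.9 with MCHP in M2, so its average of 0.59 ± 0.11 came from M2; the AOC3 call on the average was lost in a model with no interaction of state and treatment (0.616, adjusted p = 0.0735), as were those of CCL8 (-0.192, 0.404) and MT-RNR2 (0.26, 0.112). CCL8 had -0.034 in M1 and -1.05 in M2, on M2 levels of 3.72, 4.18 and 3.13 CPM with DMSO and 2.07, 1.74 and 1.51 with MCHP. CCL1 was lower with MCHP in both states, with log2 fold changes of -0.50 in M1 and -1.28 in M2. Paralogs make the counts of FABP5, CCL1 and CCL8 uncertain. Of the 15 differences, those of PLIN2, TLR4, FABP3, ADGRE3 and CD209 (5) kept their call with each library left out in turn. The other 10 lost it at least once: FABP5 without M1 DMSO replicate 2 (adjusted p 0.0683) or M2 MCHP replicate 1 (0.0601), CD83 without M1 DMSO replicate 2 (0.051) or M2 MCHP replicate 1 (0.0502), and ACSL5, SCARB1, HADHA, IFIT2, CCL1, AOC3, MT-RNR2 and CCL8 in 6 to 9 of the 12 such fits, with adjusted p up to 0.175.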

How the results depend on the processing

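The genes called on the average numbered 306 to 1378 when each library was left out in turn (174 to 755 higher, 130 to 623 lower); the upper end came without M2 DMSO replicate 1, and every other library gave at most 504. With limma-voom and sample quality weights 1834 were called (992 higher, 842 lower), and with a test against a minimum fold of 1.2 only 27 (21 higher, 6 lower). The cause was not tested. The other settings gave 406 (no interaction of state and treatment) to 707 (no filter on low counts), with 642 by DESeq2's Wald test and 486 by limma-voom. Genes lower with treatments apart in both states numbered 235 with all libraries and 280 to 383 with 1 left out, which leaves fewer values that could overlap. The difference in mitochondrial share stayed between 0.325 and 0.486 percentage points with each library left out. RXRA, not called, ran from -0.0682 (M2 DMSO replicate 1 left out) to 0.0583 (M2 DMSO replicate 3), also below 0 at -0.0111 (M1 DMSO replicate 2) and -0.022 (M2 MCHP replicate 3), and turned to -0.0124 with library size alone and -0.079 with quality weights.

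Replicate numbers recur in the 4 groups, but of 18 same-number pairs none had deviations that correlated above 0.071 (lowest -0.066), and 0 libraries correlated best with their own number. A fit with the replicate block called 443 genes, 254 higher and 189 lower. With 3 libraries per group and low M1 counts of FABP4, SLCO2B1, GPD1 and ABCG2, depth limits what can be said of those genes in M1.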
